A study of Glycine max with 14 samples.

Results

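A group of 60 soybean gene models, out of 69425 in the RPKM table, had higher transcript levels in the brown seed coats of RM38-r than in the black seed coats of RM30-R* in each of 7 pairs of libraries. They were selected on the measured difference RM38-r minus RM30-R* in each pair, taken on the log2(RPKM + 0.5) scale after every library had been brought to the same 75th percentile. Of 35393 gene models with a mean of at least 1 RPKM over the RM38-r libraries, 525 (1.48%) were above 0 in all 7 pairs, and the 60 with the largest smallest difference were kept. A rule that would also have removed a tandem group of loci on chromosome 13 (Glyma13g118 and Glyma13g119) took out 0 of the 525. The differences between the lines chose these gene models, so they are described below with no test. In the opposite direction, 673 of 35313 gene models (1.91%) were lower in RM38-r in all 7 pairs.

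RM38-r is a brown-seeded Clark isoline that is homozygous for the recessive r allele, and it served as the recurrent parent of the other lines. RM30-R* is a single stable black revertant, homozygous for R*, that arose from a mutable line made by backcrossing into that parent. Both lines carry the i and T alleles and were grown in a greenhouse without further treatment. RNA came from dissected seed coats of green seeds in 4 classes of fresh weight between 100 and 500 mg, and of seeds of 300–400 mg that had begun to desiccate. The pairs, RM38-r library first, were R43-R42 at 100–200 mg, R124-R122 at 200–300 mg, R125-R123 and R156-R154 at 300–400 mg, R113-R111 and R157-R155 at 400–500 mg, and R112-R110 in desiccating seeds. Each stage thus had 1 library per line, or 2 at 300–400 and 400–500 mg.

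The seed coat is maternal tissue that surrounds the embryo. In soybean its colour depends on flavonoid pigments, with anthocyanins giving black coats and proanthocyanidins present in brown ones. The R locus encodes a MYB transcription factor that acts late in the anthocyanin pathway. As seeds fill and then dry, the seed coat passes from a growing, nutrient-transferring tissue to a dead protective layer, and many transcripts change along that course. The identifiers of the 60 gene models could not be paired with names or functions here, so no role is given for any of them.

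The mapped totals recovered from the RPKM values were 52510463 to 120239040 alignments in RM38-r and 49509767 to 100643235 in RM30-R*. R125 and R113, both of RM38-r, stood apart from the rest. In them the chromosome 13 group (28 gene models) made up 36.2% and 19.1% of all RPKM, while its share elsewhere was 0.659% to 6.09%. The rescaling multiplied R125 by 1.55 and R113 by 1.12, and the remaining libraries by 0.917 to 1.01. Without it, 40 of the 60 gene models were above 0 in all 7 pairs, since 18 were not above 0 in R125-R123 and 3 were not in R113-R111. Embryo storage protein and lectin genes, of which 10 of 11 listed were measured, are markers of embryo tissue that a dissected coat could hold. Their summed level was 73.2 to 1500 rescaled RPKM in RM38-r libraries and 43.6 to 938 in RM30-R* libraries.

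The 60 gene models came from 47 loci on 17 chromosomes, by the chromosome number in each identifier. Chromosome 8 held 6 of the loci, or 12.8%, against 6.78% of the 28200 loci measured at this level. Glyma07g01660 contributed 6 gene models, Glyma13g25600 contributed 3, and 6 further loci contributed 2 each. Models of one locus share most of their reads, so they are not separate observations. Member loci lay close together in 3 places. Glyma12g36430 and Glyma12g36440 had no listed locus between them, and 16 listed loci lay between Glyma07g34370 and Glyma07g34550 and 16 between Glyma16g03260 and Glyma16g03470. None of the 16 anthocyanin pathway and R locus genes examined was among the 60.

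The gene models ranged widely in level, and all 7 RM38-r libraries were above 1 rescaled RPKM for 40 of them, against 82.3% of all gene models measured at this level. Their means over the RM38-r libraries were 1.37 to 764 rescaled RPKM with a median of 13.0, against 0.560 to 292 with a median of 7.29 over the RM30-R* libraries. The median over all gene models at this level was 6.26 in RM38-r. The highest means in RM38-r were those of Glyma14g05760.1, Glyma16g03470.1, Glyma17g03600.1, Glyma10g29630.1 and Glyma10g31750.1. Every one of the 60 had reads in all 14 libraries, and no gene model was at 0 throughout RM30-R*. Taken over all stages, 0 of the 60 had every RM38-r library above every RM30-R* library. The same count was 0 over all 35393 gene models at this level.

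The size of the line difference depended on the stage. At 100–200 mg the median difference over the 60 gene models was 0.25 on the log2 scale (range 0.15 to 0.87). It was 0.50 at 200–300 mg (0.15 to 2.98). At 300–400 mg it was 0.93 in R125-R123 (0.15 to 7.71) and 1.91 in R156-R154 (0.22 to 5.73). At 400–500 mg it was 0.42 in R113-R111 and 0.47 in R157-R155, and in desiccating seeds it was 0.53. Over all 35393 gene models the corresponding medians lay between -0.05 and 0.03. Their spread was also wider at 300–400 mg. The 95th percentile over all gene models was 0.85 in R125-R123 and 1.10 in R156-R154, against 0.37 to 0.53 in the other pairs. On this scale the median difference of the 60 was thus smallest in the youngest coats. It was largest at 300–400 mg, where differences of all gene models were wider too. The pseudocount of 0.5 narrows differences at low levels, and median levels at 100–200 mg were 1.29 rescaled RPKM in RM38-r and 0.997 in RM30-R*. Glyma10g44170.1, for example, had a ratio of 2.99 in R43-R42 but a difference of 0.26. How far the small differences there rest on the pseudocount was not tested. In whole seed coats, more cells of a type and more RNA per cell cannot be told apart.

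**Figure D1:**
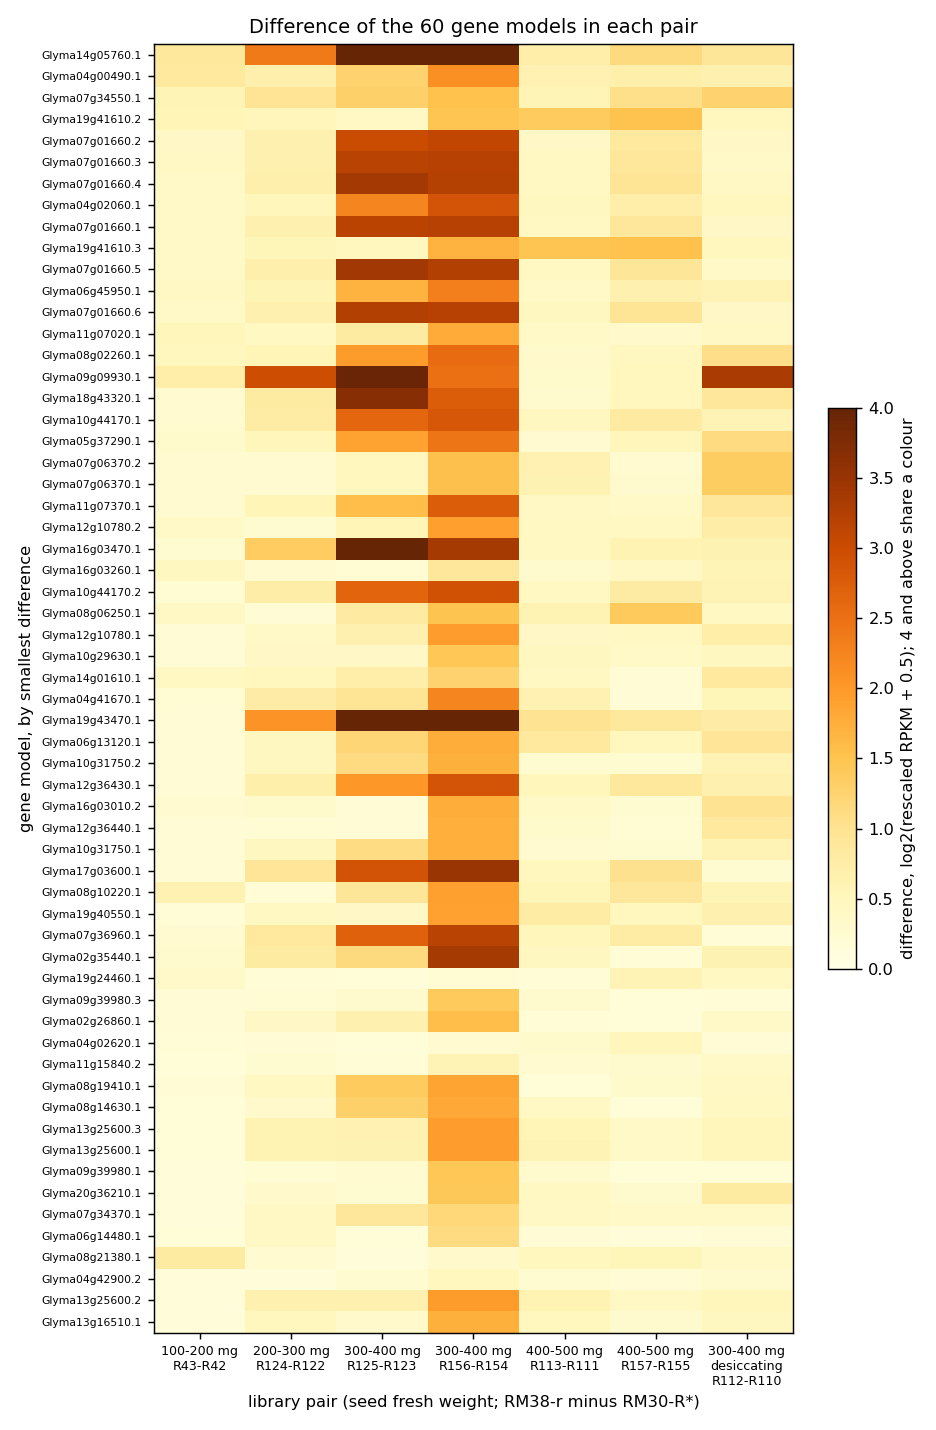
Difference RM38-r minus RM30-R* on the log2(rescaled RPKM + 0.5) scale for the 60 gene models (rows, ordered by their smallest difference) in the 7 library pairs (columns, by seed fresh weight). Darker cells are larger differences, and the darkest column is R156-R154 at 300–400 mg, where the median was 1.91.

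The largest of the 7 differences was in a 300–400 mg pair for 56 of the 60 gene models, against 34.8% of all gene models at this level. Among the 525 above 0 in all 7 pairs, which include the 60, it was there for 319. Of the 60, 49 had it in R156-R154 and 7 in R125-R123. A difference of at least 1 was seen in R125-R123 for 29 gene models and in R156-R154 for 54, against 3.93% and 5.7% of all. It was at least 1 in both pairs for 29 of the 60, and at least 2 in both for 17. The share over all gene models was not computed for both pairs together. The smallest difference was in R43-R42 for 32, against 14.9% of all. The embryo genes moved unevenly between the lines. Of the 10 measured, 2 were above 0 and 8 below 0 in R125-R123, and 5 were above and 5 below in R156-R154, where the 5 beta-conglycinin genes were higher in RM38-r (1.28 to 1.57) and the 4 glycinin genes (-0.94 to -0.35) and the lectin gene (-2.12) were lower. All 10 were above 0 in R43-R42 and in R124-R122, 9 in each pair at 400–500 mg and 4 in desiccating seeds. Their summed level was 551 in R125 against 756 in R123, and 839 in R156 against 309 in R154, of which Glyma10g39150 alone gave 635 and 214. Their part in the result was not tested.

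After rescaling, the stage course differed in shape between the lines. The median level of the 60 gene models in RM38-r was 1.29 rescaled RPKM at 100–200 mg, 6.55 at 200–300 mg, 7.33 and 14.8 at 300–400 mg, 10.9 and 7.31 at 400–500 mg, and 34.0 in desiccating seeds. In RM30-R* it was 0.997, then 4.63, then 1.83 and 2.57 at 300–400 mg, 7.73 and 5.19 at 400–500 mg, and 21.8 in desiccating seeds. The RM30-R* libraries at 300–400 mg were therefore below those of the stages on either side, while the rescaled RM38-r libraries were not. For R125 this rested on its rescaling by 1.55. Without rescaling its median also lay below those of the RM38-r libraries at 200–300 and 400–500 mg. The median of R156, rescaled by 0.98, lay above them either way.

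**Figure D2:**
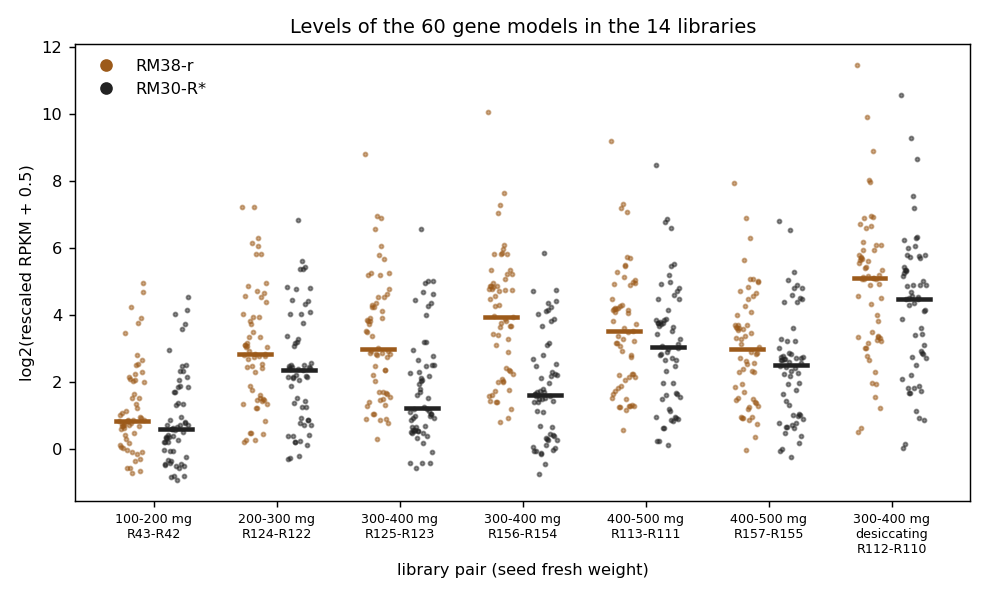
Levels of the 60 gene models in the 14 libraries on the log2(rescaled RPKM + 0.5) scale, with 1 point per gene model and a bar at the median, RM38-r left of RM30-R* in each pair. In RM30-R* the medians at 300–400 mg, 1.83 and 2.57 rescaled RPKM, lie below those at 200–300 and 400–500 mg.

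Both RM38-r libraries at 300–400 mg were above the one at 200–300 mg for 42 of the 60, against 26.3% of all gene models. Both RM30-R* libraries at 300–400 mg were below the RM30-R* libraries at 200–300 and 400–500 mg for 35 of the 60, against 8.41% of all. The same dip in RM38-r was seen for 0 of the 60, against 12.8% of all. For 27 of the 60, from 20 loci, both RM38-r libraries at 300–400 mg were above the one at 200–300 mg while both RM30-R* libraries were below theirs, against 6.8% of all. Without rescaling this count was 11. Among the 525 gene models above 0 in all 7 pairs, which include the 60, the counts with rescaling were 255, 153, 21 and 89, in the order given. These libraries also entered the choice of the gene models, so the counts are descriptions.

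Glyma14g05760.1 had the largest smallest difference, 0.72. Its levels in RM38-r were 1.26 rescaled RPKM at 100–200 mg, 148 at 200–300 mg, 448 and 1062 at 300–400 mg, 591 and 244 at 400–500 mg, and 2853 in desiccating seeds. In RM30-R* they were 0.464, 28.0, 1.63 and 25.6, 359 and 111.5, and 1516 at the same stages. The difference at 300–400 mg was 7.71 in R125-R123 and 5.35 in R156-R154, against 0.72 to 2.38 in the other 5 pairs. The level of 1.63 in R123 rested on 41 reads, and that of 448 in R125 on 7551.

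Glyma19g43470.1 and Glyma16g03470.1 followed the same course. Glyma19g43470.1 had 22.7 and 56.2 rescaled RPKM at 300–400 mg in RM38-r, against 0.613 and 0.568 in RM30-R*, while in desiccating seeds it had 249 in RM38-r and 147 in RM30-R*. At 100–200 mg it had 9 reads in R43 and 2 in R42. Glyma16g03470.1 had 94.2 and 131 at 300–400 mg in RM38-r, against 4.41 and 12.2 in RM30-R*, and 962 in RM38-r against 627 in RM30-R* in desiccating seeds. In both gene models the gap was wide at 300–400 mg and had narrowed by 400–500 mg.

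Glyma17g03600.1 had 118 and 198 at 300–400 mg in RM38-r, against 15.3 and 17.2 in RM30-R*, and its smallest difference, 0.19, was at 100–200 mg. The 6 models of Glyma07g01660 had differences of 3.01 to 3.39 in R125-R123 and 3.11 to 3.24 in R156-R154. Glyma18g43320.1 differed by 3.67 and 2.76 in these pairs, Glyma10g44170.1 by 2.62 and 2.83, and Glyma04g02060.1 by 2.22 and 2.88. Of the neighbours on chromosome 12, Glyma12g36430.1 differed by 2.01 and 2.89 and Glyma12g36440.1 by 0.19 and 1.74. The adjoining loci thus shared the gap in R156-R154 and not that in R125-R123.

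Other leading gene models had milder gaps. Glyma04g00490.1 differed by 0.63 to 2.10 over the 7 pairs, Glyma07g34550.1 by 0.56 to 1.52 and Glyma06g45950.1 by 0.35 to 2.31. Glyma07g34370.1, near Glyma07g34550.1 on chromosome 7, differed by 0.15 to 1.19. Glyma08g02260.1 differed by 0.32 to 2.56 and Glyma05g37290.1 by 0.25 to 2.42. Glyma11g07020.1 had 10.4 to 72.4 rescaled RPKM in RM38-r and 7.14 to 54.8 in RM30-R*. Its difference was 0.32 to 0.81 in 6 pairs and 1.80 in R156-R154. Glyma10g29630.1 had a mean of 140 in RM38-r and 96.9 in RM30-R* and likewise reached its largest difference, 1.44, in R156-R154.

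**Figure D3:**
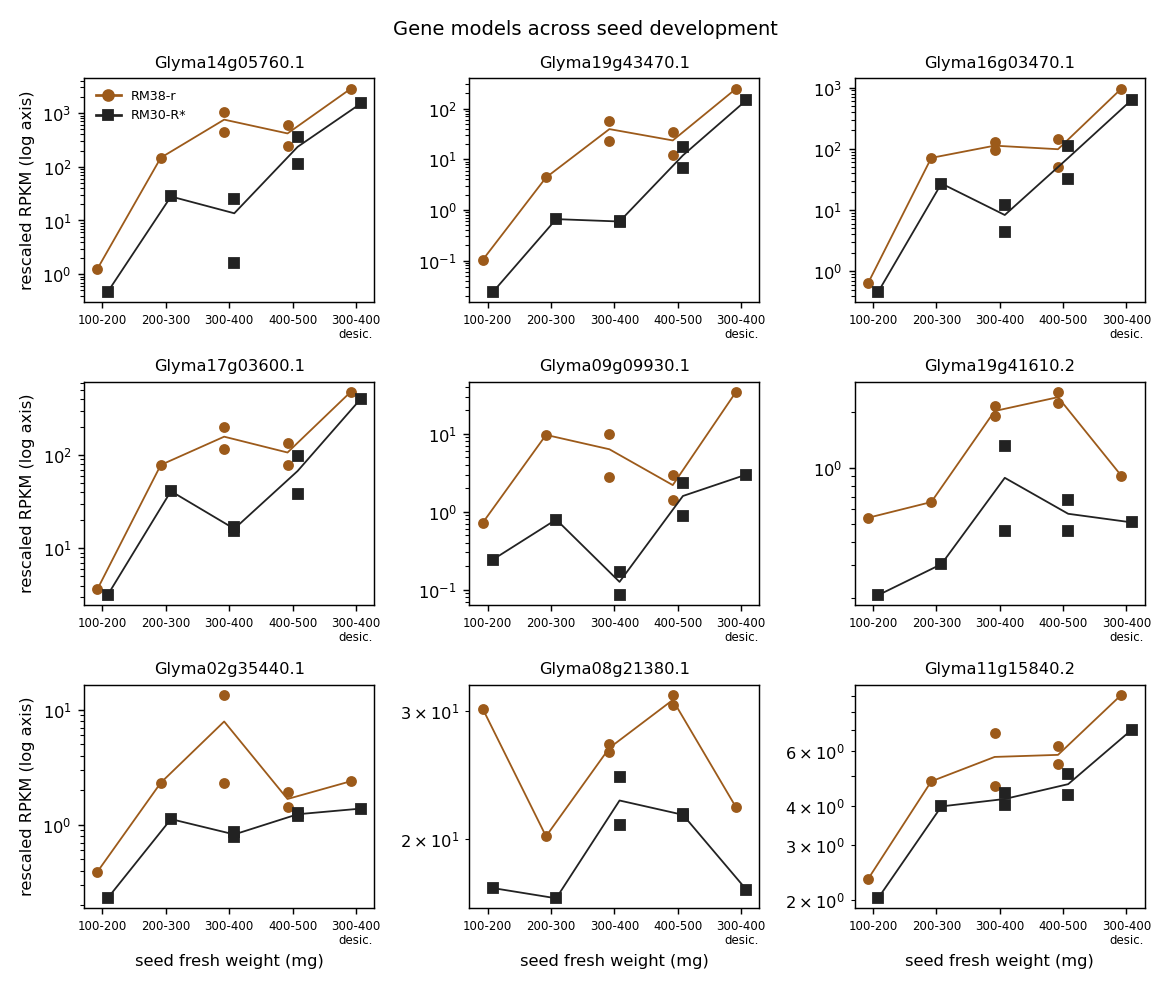
Rescaled RPKM (log axis) of single gene models against seed fresh weight, with 1 point per library and a line through the stage means, RM38-r as circles and RM30-R* as squares. Glyma14g05760.1, Glyma19g43470.1, Glyma16g03470.1 and Glyma17g03600.1 separate most at 300–400 mg, while Glyma11g15840.2 keeps a small gap of 0.16 to 0.58 throughout.

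A few gene models departed from this course. Glyma09g09930.1 had 9.70 rescaled RPKM at 200–300 mg and 34.8 in desiccating seeds in RM38-r, against 0.794 and 3.00 in RM30-R*, so that its difference was 2.98 and 3.33 there as well as 3.96 and 2.51 at 300–400 mg. At 400–500 mg it was only 0.31 and 0.48. Glyma19g41610.2 instead differed by 1.47 in R156-R154 and by 1.39 and 1.52 at 400–500 mg, at levels of 0.539 to 2.58 in RM38-r and 0.206 to 1.31 in RM30-R*. Glyma07g06370.2 differed by 1.53 in R156-R154 and 1.36 in desiccating seeds. Glyma02g35440.1 had 13.5 in R156 and 2.32 in R125, the other RM38-r library of that stage, so that 1 library set its largest difference of 3.37.

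In 6 gene models all 7 differences were under 1. Glyma08g21380.1 had 20.2 to 31.6 rescaled RPKM in RM38-r and 16.6 to 24.3 in RM30-R*, and it was the one gene model of the 60 with its largest difference, 0.80, at 100–200 mg. Glyma04g42900.2 differed by 0.15 to 0.49, Glyma11g15840.2 by 0.16 to 0.58 and Glyma16g03260.1 by 0.23 to 0.89. Glyma19g24460.1 and Glyma04g02620.1 were short and low. Of the 420 differences, 31 had a 95% exact binomial counting interval that included equal levels, 16 of them in R43-R42, and these included all 7 pairs of Glyma04g02620.1 and 4 of Glyma19g24460.1. The intervals cover counting error only.

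The last gene models inside the limit, Glyma06g14480.1, Glyma08g21380.1, Glyma04g42900.2, Glyma13g25600.2 and Glyma13g16510.1, had a smallest difference of about 0.15. So did Glyma07g28610.1, the first outside it. Glyma07g28610.1 was more abundant than any of the 60, with a mean of 2392 rescaled RPKM in RM38-r and 1097 in RM30-R*, and differed by 4.50 and 3.58 at 300–400 mg. Glyma17g09390.1, Glyma17g33790.1, Glyma19g29660.1 and Glyma05g32830.1 came next, with 0.14 each.

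Whether these gene models changed over seed development was tested on the mean of both lines in each pair. This mean is not the line difference, but it comes from the same libraries. Outside the 60, gene models called higher at 400–500 than at 100–200 mg were also mostly higher in RM38-r in green seeds, as given below. The counts for the 60 are therefore not independent of their choice. The test was a limma fit over 43960 gene models with Benjamini-Hochberg adjustment. From 100–200 to 400–500 mg, 57 of the 60 had a positive difference, with a median of 1.54 on the log2 scale, against 52.0% and 0.03 for all gene models tested. At an adjusted p of 0.05, 16 rose, from 14 loci, and 0 fell, against 1.38% and 7.91% of all tested. The 60 also had to reach 1 RPKM over RM38-r, and among the 35392 tested gene models that did so the shares were 1.63% higher and 3.51% lower. At an unadjusted p of 0.05 the counts were 42 higher and 0 lower, against 12.9% and 11.1% of those 35392. Most of the 60 thus had a higher estimate in the older coats, though only 16 passed the adjusted test.

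Glyma16g03470.1 rose most among those called in this limma fit, by 6.11 ± 0.85 (SE; adjusted p = 0.036). Glyma19g43470.1 rose by 4.78 ± 0.69 (limma adjusted p = 0.039) and Glyma17g03600.1 by 4.36 ± 0.53 (limma adjusted p = 0.027). Glyma14g05760.1 had the largest estimate of the 60, 7.73 ± 1.28, with a limma adjusted p of 0.050 that did not pass. The count rests on few libraries. It was 1 without either pair at 300–400 mg (R125-R123 or R156-R154), and 5 without R113-R111.

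Between 400–500 mg and desiccating seeds, 56 of the 60 had a positive difference, with a median of 1.52, against 42.3% and -0.07 for all gene models. Only Glyma18g43320.1 passed the limma test, by 3.38 ± 0.26 (SE; adjusted p = 0.030), against 1.8% of all gene models called higher and 1.29% of the 35392. None of the 60 was called lower, against 0.453% of all and 0.542% of the 35392. At an unadjusted p of 0.05 the counts were 42 higher and 1 lower, against 11.0% and 15.2% of the 35392. The levels of Glyma18g43320.1 in desiccating seeds were 118 rescaled RPKM in RM38-r and 63.4 in RM30-R*, against 9.76 and 8.32 in RM38-r and 7.95 and 5.86 in RM30-R* at 400–500 mg. Without R125-R123, R156-R154, R113-R111 or R157-R155 the contrast called 0 of all gene models, so that no call could remain, and the estimate for Glyma18g43320.1 was 3.23 to 3.54. Over the 5 stages together, 10 of the 60 passed the limma F test, against 7.74% of all gene models and 4.28% of the 35392.

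The library of desiccating seeds was the highest of its line for 48 of the 60 in RM38-r and for 53 in RM30-R*, against 24.2% and 22.3% of all gene models. The 100–200 mg library was the lowest for 54 in RM38-r and 46 in RM30-R*, against 28.5% and 29.2% of all. These traits were also common among the 525 gene models above 0 in all 7 pairs, which include the 60. In them the desiccating library was the highest for 286 in RM38-r and 297 in RM30-R*. The 100–200 mg library was the lowest for 415 and 391. The difference between desiccating and 100–200 mg seeds, as the mean of both lines, had a median of 3.50.

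Gene models outside the 60 were compared at the same level, a mean of at least 1 RPKM over RM38-r. Among the 560 of these that the limma fit called higher at 400–500 than at 100–200 mg, the median difference RM38-r minus RM30-R* was 0.43 in R125-R123 and 0.29 in R156-R154. Among the 1243 of these called lower it was -0.61 and -0.51. In desiccating seeds these medians were -0.12 and -0.03. Of the 560, 61.3% to 88.4% were above 0 in each pair of green seeds, and 34.1% in R112-R110. The 60 gene models, with medians of 0.93 and 1.91 at 300–400 mg and 0.53 in desiccating seeds, had larger differences, as their choice required.

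None of the 16 pathway and R locus genes was above 0 in all 7 pairs, and their patterns varied. The R gene itself, Glyma09g36990, a MYB transcription factor gene, was above 0 in 6 of 7 pairs, with a mean of 1.44 rescaled RPKM in RM38-r and 0.404 in RM30-R*, and missed the rule by its difference of -0.30 at 200–300 mg. UGT78K1, a flavonoid glucosyltransferase gene, was also above 0 in 6 pairs, and UGT78K2 in 4. ANS2, ANS3 and F3'H were below 0 in all 7 pairs. ANS2 and ANS3, which encode anthocyanidin synthase, were at -1.77 and -2.24 in R125-R123, and at their lowest, -2.98 and -3.03, in R113-R111. In R43-R42 the lines were nearly equal in ANS2 (-0.048) and ANS3 (-0.00036). At 300–400 mg, 4 of the 16 were above 0 and 11 below 0 in R125-R123, and 5 were above and 11 below in R156-R154.

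The summed level of the 16 genes was 1520 rescaled RPKM in RM38-r and 1550 in RM30-R* at 100–200 mg, and 431 in RM38-r against 718 in RM30-R* at 200–300 mg. It was 219 and 169 in RM38-r against 630 and 585 in RM30-R* at 300–400 mg. At 400–500 mg it was 187 in R113 against 488 in R111, and 332 in R157 against 346 in R155. In desiccating seeds it was 67.8 in RM38-r and 114 in RM30-R*. The sum was thus lower in RM38-r in every pair, by little in R43-R42 and R157-R155. It mostly follows the abundant genes, such as CHS7. In R157-R155, 7 of the 16 genes were above 0 and 8 below 0, with ANS2 at -1.52 and ANS3 at -1.56.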

How the data were processed

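The authors aligned Illumina HiSeq2000 reads of seed coat RNA to soybean cDNA gene models with Bowtie (version 1 in the submitters' processing notes) and deposited RPKM values, which scale the reads of a gene model to its length and to the mapped reads of the library. They counted reads that align to several models at each of them, so isoforms and paralogs share reads. One incomplete line was left out. Values were rescaled to equal 75th percentiles (target: the mean over libraries), and log2 was taken with a pseudocount of 0.5. Whole reads were recovered from the RPKM steps for all 60 gene models (tolerance 0.02 reads). Stages were tested with limma 3.58.1 (R 4.3.3; variance trend) on 7 pair means, keeping gene models that reached 0.5 RPKM in 2 or more libraries. The fit had 2 residual degrees of freedom. On simulated data (40774 gene models, desiccating minus 400–500 mg) it recovered 94% of changes of 1 and 95% of changes of 2 on the log2 scale. The simulated noise was independent and of equal size for every gene model and library. Real gene models differ in spread, so these shares do not give the power of the test in these data. The labels do not say that replicates are separate plants. The paper calls the second 400–500 mg set a biological replicate from an independent extraction, and does not say whether the plants were separate. The p-values thus measure the spread between these libraries. That spread comes only from the replicated pairs at 300–400 and 400–500 mg. The other stages, at an end of each contrast, had a single pair and gave no spread. Python 3.11.15 with pandas 2.3.3 did the rest. The members and lists were chosen with earlier results of these data known. Gene models are named by rank (the first 20, and ranks 56 to 65), by nearness to another member, by level (the highest 5) and by stage estimate (the largest 3 called). Others were named after their values were seen: Glyma11g15840.2, Glyma19g24460.1, Glyma04g02620.1 and Glyma02g35440.1. Sequences, functional groups, promoter motifs and seed coat markers were not analysed here. Pseudocounts, scalings, filters, other fits and omitted pairs were tried as alternatives.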

Additional observations from a re-analysis of the deposited data

Results flagged for a closer look

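In 27 of the 60 gene models the step between 200–300 and 300–400 mg ran in opposite directions in the lines: both RM38-r libraries at 300–400 mg were above the RM38-r library at 200–300 mg, and both RM30-R* libraries were below theirs. This held for 6.8% of all gene models at this level and for 89 of the 525 above 0 in all 7 pairs. With no rescaling the count among the 60 was 11. The difference in direction was not tested, because 200–300 mg has 1 library per line and these libraries entered the choice of the gene models.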

How the results depend on the processing

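All 60 gene models stayed above 0 in all pairs with a pseudocount of 0.1 or 1, quantile normalization or equal medians. With no rescaling 40 did, 18 being at or below 0 in R125-R123 and 3 in R113-R111, and with a minimum of 5 RPKM 42 remained. The rule chose 34 of the 60 again with no rescaling and 36 to 52 without one of the replicated pairs. After seeing the data, it was also run without R43-R42 (18 chosen again), without R112-R110 (37) and without both R125-R123 and R113-R111 (34).

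Counts of calls in the stage fit moved with the setting. Over all gene models the F test called 3403. It called 2219 with a pseudocount of 0.1, 6138 with no filter on low values and 1811 with no variance trend. For 400–500 minus 100–200 mg the count was 4086, and 7863 with no filter. For desiccating minus 400–500 mg it was 991, and 445 with a pseudocount of 0.1, 647 with no rescaling, 1511 with quantile normalization and 656 with no variance trend. Of the 60, the F test called 10, and 6 with a pseudocount of 0.1, 16 with 1, 4 with no filter and 3 with no variance trend. In desiccating minus 400–500 mg 1 of the 60 was higher, and 0 with a pseudocount of 0.1, 6 with 1, 5 with quantile normalization, 0 with no filter and 7 with a minimum of 1 RPKM.

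For desiccating minus 400–500 mg the split over all gene models was 792 higher and 199 lower. It was 597 and 50 with no rescaling, 929 and 419 with a minimum of 1 RPKM and 1075 and 106 with no filter. With all 14 libraries the balance turned, to 5908 higher and 7461 lower with no replicate block and 4164 and 4435 with it. The split for 400–500 minus 100–200 mg was 608 higher and 3478 lower, and 822 and 2468 with quantile normalization.

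Leaving out one replicated pair gave 569 to 847 calls in the F test (0 to 2 of the 60), 1333 to 2038 for 400–500 minus 100–200 mg (1 to 13 of the 60 higher) and 0 to 0 for desiccating minus 400–500 mg (0 to 0 of the 60), with fewer residual degrees of freedom.

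With all 14 libraries and no replicate block, the F test called 22888 (58 of the 60), 400–500 minus 100–200 mg 15376 (44 higher) and desiccating minus 400–500 mg 13369 (41 higher and 1 lower of the 60). With the library pair as a replicate block these were 15786 (49), 11507 (37 higher) and 8599 (30 higher). Both count the lines as replicates of a stage. The libraries of a pair share only a number in the labels. Their deviations from the stage means correlated at 0.182 at 300–400 mg and 0.604 at 400–500 mg. The smallest count of a gene model in a library was 2 reads, and 128 of 840 values rested on under 100 reads.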
